A study of Bos taurus with 10 samples.

Results

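At 211 cytosines outside the CG context, the methylation level was 50 % or more in every one of 10 bovine RRBS libraries, although the cytosine was not read as lying directly 5′ of an *MspI* site on its strand. The members were chosen among the cytosines with at least 8 reads in all 10 libraries, which numbered 152300 of 1868049 cytosines covered in at least 1 library and included 99293 non-CG sites. Of these shared non-CG sites, 553 were at 50 % or more in all 10 libraries. Of these, 342 were left out because the deposited bases showed CC after the cytosine and a CG 2 bp downstream was covered, so that the members made up 0.213 % of the shared non-CG sites. The last base of the site was not read by this rule, and 336 of the 342 lay directly 5′ of CCGG, while at the other 6 the last base was not G. The levels of the members were therefore set by the choice and are described here without a test.

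The study profiled 1 library per tissue from a Hereford cow and relatives of that cow. Adult females gave the uterus, the skeletal muscle, the lactating mammary gland (lactation day 90) and the nucleated blood cells, and an adult male gave the testis. Juvenile females gave the ileum, the abomasum, the frontal cortex and the mammary parenchyma, and a male fetus gave the rumen. The labels give no treatment, and no tissue has a replicate, so that tissue, animal, sex, stage and library cannot be told apart. Abomasum was the shallowest library with a median of 10 reads per cytosine, testis had 14 and the other 8 libraries 20 to 27. No deposited count exceeds 65535 reads.

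In mammals, cytosine methylation is kept up mainly at CG sites, where the palindromic context lets the maintenance methyltransferase copy the mark to the new strand at replication. Non-CG methylation lies in the CHG and CHH contexts, where H is A, C or T. It needs de novo methyltransferases, favours a cytosine followed by adenine, and is best known from neurons, oocytes and embryonic stem cells. In RRBS, *MspI* cuts CCGG, adapters are ligated to the cut ends, and bisulfite turns unmethylated cytosines into bases read as thymine. The adapters used here carried methylated cytosines and a T overhang, so that their own cytosines are read as methylated after bisulfite.

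The sequences of a few members are shown because their distance to CCGG is the pattern the members turn on. They are from UMD3.1, assembled from the deposited bases around the covered cytosines and written 5′ to 3′ on the strand of the cytosine. Capitals mark the constantly high cytosine and, where it is in the window, the CCGG after it. The members before CCGG were picked for display by their coverage, among those with every base of the window assembled, after the values were seen. In the first group the member lies 5 bases before the first base of CCGG.
chr17:74106172-74106188, forward: agCagcgCCGGgcccgc
chr4:114358245-114358261, forward: ggCttccCCGGgcagac
The next one has its member 6 bases before CCGG.
chr5:56360589-56360606, forward: cgCcgccgCCGGccgtcg
In these 3 windows adjacent members lie 6 and 5 bases before CCGG.
chr2:132737143-132737160, forward: ttCCtcctCCGGaagcag
chr6:70048486-70048503, forward: tgCCcgtcCCGGggccgc
chr16:63526101-63526118, forward: tcCCctccCCGGacctgg
For comparison, this site lies directly 5′ of CCGG and was left out by the rule, and its C runs into the CCGG.
chr29:19442773-19442785, forward: gcCCCGGgcagtt
The last group holds members away from these positions, namely the most deeply covered ones, the run of 3 members on chromosome 20, and 3 whose level varied widely.
chr29:19430985-19431006, forward: ttccaccCttggcggagctcca
chr22:53684785-53684801, reverse: tcCaggggcgacaggga
chr10:59478549-59478578, reverse: gttcggagaggtgtcCtggcatcgggtact
chr20:14787301-14787323, forward: ttccacgttgCaaggCaCcccga
chr21:70103007-70103036, reverse: ccggccggtccctgcCattctcggaggtgg
chr4:61197497-61197518, reverse: gggatggCaggcgagcacggtc
chr11:107305173-107305202, reverse: tctggacgaggatgaCtgacacggacggac

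The position before CCGG and the strand were shared by many members, although the rule used neither beyond the base directly 5′ of the site. The motif CCGG, which reads alike on both strands, was searched in the assembled bases up to 60 bases downstream of each cytosine and was found for 70937 of the 99293 shared non-CG sites. On the forward strand, 55 of the 630 shared non-CG sites that lay 5 bases before CCGG were members (8.73 %). At 6 bases, 31 of 733 were members (4.23 %). None of the 2069 forward sites at 2, 3 or 4 bases was a member, and neither was any of the 664 forward sites at 7 bases. On the reverse strand, 4 of 1573 sites at 5 or 6 bases were members (0.254 %). Together the forward sites at 5 and 6 bases held 86 of the 211 members. This set was recognised after the levels were seen, so its size carries no test.

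The sites that the rule left out lay mostly on the same strand. Directly 5′ of CCGG, 326 of 1730 forward sites (18.8 %) were at 50 % or more in all 10 libraries, compared with 11 of 1609 reverse sites (0.684 %). One of the latter, chr4:27749206, which was at 100 % in every library, stayed a member because the CG after it was not covered. Of all 342 sites left out, 329 were on the forward strand. Across the distances from 1 to 7 bases, constantly high forward sites were thus found at 1, 5 and 6 bases and at no other distance.

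**Figure D1:**
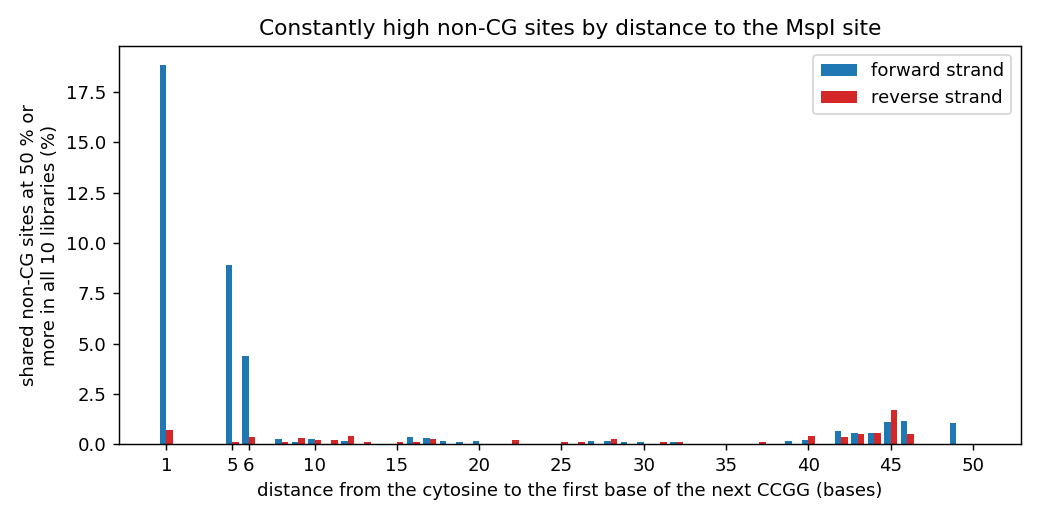
Share of the shared non-CG sites with a methylation level of 50 % or more in all 10 libraries (y axis, %) against the distance to the first base of the next CCGG (x axis, bases), for the forward and the reverse strand. The forward bars at 1, 5 and 6 bases reach 18.8 %, 8.89 % and 4.37 %, where the bar at 1 holds the sites left out by the rule and each bar at 5 and 6 holds 1 such site beside the members.

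The 86 members lay before 77 CCGG sites. At 11 of these sites both positions held a member, at 45 only the position at 5 bases and at 21 only the position at 6 bases. A shared forward non-CG site directly 5′ of the same CCGG existed at 26 of the 77 sites, and 25 of these were also at 50 % or more in every library, with a mean level of 89.9 % over the 26. The 18 shared forward non-CG sites at 2 to 4 bases before the same CCGG had a mean level of 0.172 % and a highest site mean of 1.26 %, at a median of 34 reads. With the sites at 7 to 12 bases before it included, there were 30 such sites, with a mean level of 2.0 % and a highest site mean of 52.4 %. High cytosines and nearly unmethylated ones thus lay a few bases apart in front of the same cut site.

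Neighbouring coverage also separated these members from the other sites at the same positions. A shared cytosine on the same strand at 8 to 30 bases before the CCGG was found for 2 of the 86 members (2.33 %), while 68 (79.1 %) had a shared cytosine at 4 to 30 bases from the first base of the CCGG on its far side and none before it. Of the 1275 forward sites at 5 or 6 bases that were not high, 1252 (98.2 %) had a shared cytosine before the CCGG and 65 (5.10 %) one after it. The sites left out directly 5′ of CCGG on the forward strand were like the members, with 10 of 326 (3.07 %) covered before the CCGG and 281 (86.2 %) after it. Within these windows the covered cytosines around the members thus lay mostly beyond the cut site, while nearer to the site some lay on the member's own side. Whether adapter bases were read at these positions was not tested, since the reads were not used here.

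Non-CG sites that were not covered in all 10 libraries had no part in the choice of members, and they are given per library. At 5 bases before CCGG on the forward strand, the mean level in a library was 10.3 % ± 2.81 (SD, n = 10 libraries), lowest in testis with 3.27 % and highest in blood cells with 13.3 %. On the reverse strand it was 1.20 % ± 0.279, with a highest value of 1.66 %. At 6 bases the forward mean was 8.27 % ± 1.98, with 2.89 % in testis and 9.98 % in blood cells at the ends, and the reverse mean was 1.10 % ± 0.259. The forward and reverse libraries did not overlap at 5 and 6 bases. At 4 bases the forward mean was 0.859 % ± 0.169 and at 7 bases 0.849 % ± 0.253. Between 380 sites in abomasum and 2490 in testis stood behind a forward mean at 5 bases, and the share of them at 50 % or more lay between 2.77 % (testis) and 13.2 % (blood cells). These positions were picked from the shared sites of the same libraries, so the values are a description.

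**Figure D2:**
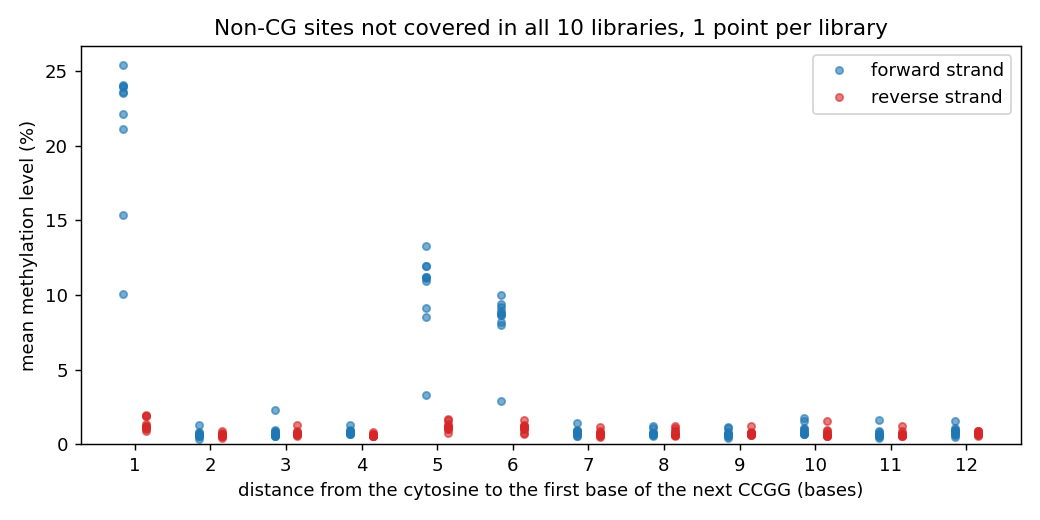
Mean methylation level (y axis, %) of the non-CG sites that were not covered in all 10 libraries, by distance to the first base of the next CCGG (x axis, bases) and strand, with 1 point per library. Forward points stand above the reverse points at 1, 5 and 6 bases, and testis is the lowest forward point at each of the 3 distances, with 10.1 %, 3.27 % and 2.89 %.

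The member at chr6:45775163 (CCCCG, forward), 6 bases before CCGG, had the highest lowest coverage of the 86, with 161 to 2213 reads. Its level was 74.9 % in testis at the lowest, 79.1 % at the median and 88.4 % in rumen at the highest. The next in coverage was chr17:74106174 (AGCAG, forward), 5 bases before CCGG. Its level was 95 % in abomasum and 100 % in the other 9 libraries, on 20 to 60 reads. At chr6:70048489 (GCCCG, forward) the level was 75.0 % in abomasum at the lowest, 98.8 % at the median and 100 % at the highest, on 18 to 47 reads. At chr4:114358247 (GGCTT, forward) it was 66.7 % in abomasum, 93.7 % at the median and 98.0 % at the highest. Abomasum was the lowest library at the last 3 of these sites and testis at the first.

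Over the 86 members, the abomasum library had a mean level of 80.9 %, and the means of the other 9 libraries lay between 94.3 % and 97.5 %. Their median coverage was 11 reads in abomasum and 34.5 reads at the median of the libraries. The abomasum library, which was the shallowest, thus stood apart from the other 9 at these members. Without abomasum as a library, 362 sites met the rule, of which 181 lay 5 or 6 bases before CCGG on the forward strand. The 342 sites left out gave 82.1 % in abomasum and 94.2 % to 97.6 % in the others. The part of depth in the lower level of abomasum was not tested.

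The 125 members elsewhere were spread over both strands, with 64 on the forward and 61 on the reverse strand. Their forward share was 51.2 % (interval 42.5 to 59.8 %), against 46.4 % of all shared non-CG sites, while all 211 members had a forward share of 71.1 % (interval 64.6 to 76.8 %). Intervals are Wilson intervals at 95 %, for counting error alone. The 125 members lay on 28 chromosomes and on unplaced sequence, which held 2, while none was among the 33 shared mitochondrial non-CG sites. Within the distances from 7 to 41 bases before CCGG, 45 of 55193 sites of both strands were members (0.0815 %). From 42 to 46 bases, 21 of 2851 were members (0.737 %), 15 of them on the forward and 6 on the reverse strand. These ranges of distance were set with the levels known, so the 2 shares are a description and carry no test. For 51 of the 125 no CCGG was found within 60 bases downstream, out of 28356 such sites (0.180 %). Where none was found within 60 bases on either side, 19 of 4349 sites were members (0.437 %).

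Levels at the 125 were lower and more varied than at the 86. The median over sites of the mean level was 91.4 % for the 125, 95.8 % for the 86 and 96.5 % for the 342 sites left out. The median SD over the 10 libraries was 7.69, 6.11 and 5.68 points, respectively. All shared non-CG sites together had a median site mean of 0.416 %. Of the 211 members, 92 stayed at 80 % or more in every library, 50 at 90 % or more, and 13 were at 100 % in every library, all 13 among the 125. Per library, the mean level over the 125 was lowest in testis (81.4 %), followed by abomasum (85.0 %) and skeletal muscle (87.2 %), and the other 7 libraries lay at 88.3 % to 92.3 %. Testis was thus the lowest library for these members and abomasum for those before CCGG.

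**Figure D3:**
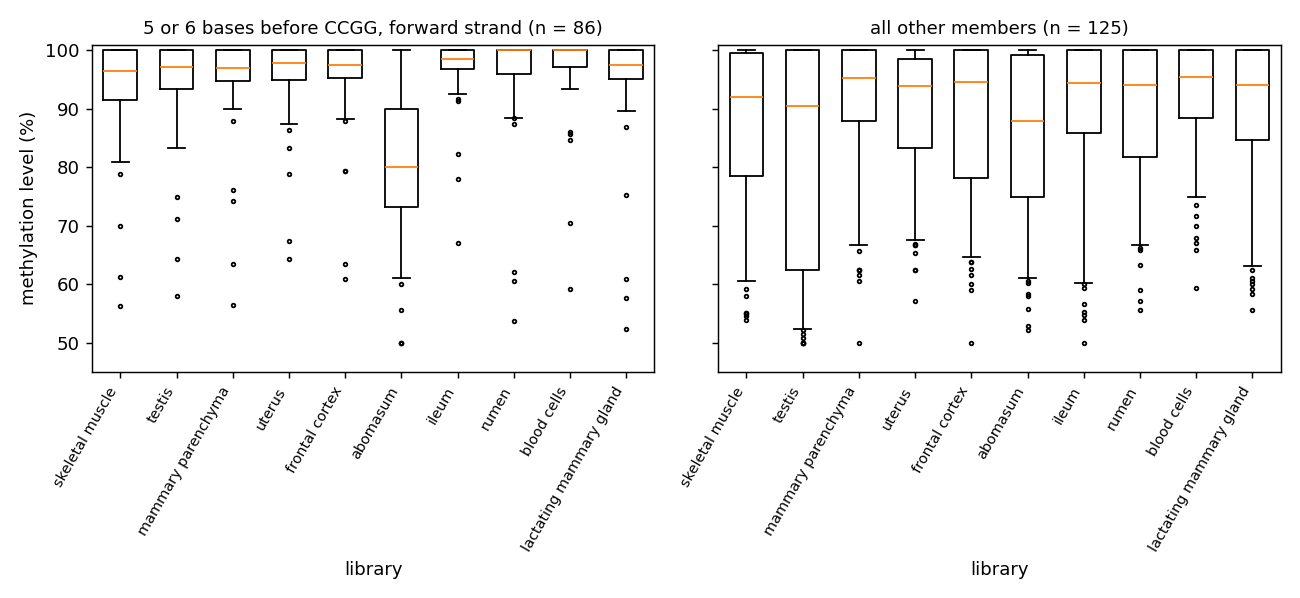
Methylation level (y axis, %) of the 86 members 5 or 6 bases before CCGG (left) and of the other 125 members (right) in each library (x axis), as boxes from the first to the third quartile with the median as a line, whiskers at the 5th and 95th percentile, and points beyond. The median of the 86 is 80 % in abomasum, below the other 9 libraries, and the 125 have their widest box in testis.

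The next base set the context of each member, and the rule bore on it, since each of the 342 sites left out was followed by CC. The exclusion therefore lowers the shares of C and CC among members and raises those of the other bases. Adenine followed 57 members (27.0 %, interval 21.5 to 33.4 %), and 19.4 % of all shared non-CG sites. Cytosine followed 108 members (51.2 %, interval 44.5 to 57.8 %), against 57.7 %, and thymine 46 members (21.8 %, interval 16.8 to 27.8 %), against 22.9 %. Among the 93280 shared non-CG sites that the exclusion could not remove, adenine followed 20.7 %, cytosine 54.9 % and thymine 24.4 %. By next base, 0.296 % of these sites before adenine, 0.211 % of those before cytosine and 0.202 % of those before thymine were members. Among all 553 constantly high sites, those left out included, adenine followed 10.3 %. Among the 125 members away from the positions before CCGG, adenine followed 39 (31.2 %), cytosine 56 (44.8 %) and thymine 30 (24.0 %). Among the 86 it followed 18 (20.9 %). Only shares are given here, and no test of composition was made.

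The members comprised 103 CHG and 108 CHH sites, or 0.256 % of the shared CHG and 0.183 % of the shared CHH sites. The most frequent pair of following bases was CG, at 55 members (26.1 %), a pair that also followed 21.4 % of all shared non-CG sites. AG followed 31 members (14.7 %, against 9.41 %), CC 29 (13.7 %, against 20.7 %, or 15.6 % of the sites the exclusion could not remove) and CA 4 (1.90 %, against 7.11 %). CAC, the sequence in which non-CG methylation of neurons is known to be strongest, made up 15 members (7.11 %) and 6.05 % of all shared non-CG sites. The base before the cytosine was G at 76 members (36.0 %), C at 74 (35.1 %), T at 33 (15.6 %) and A at 28 (13.3 %), and each share was within 4 points of that among all shared non-CG sites.

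CAG on 1 strand is CTG on the other, so that the opposite cytosine of such a site can be looked up 2 bp away. Of the 48 members in CAG or CTG, 5 had an opposite cytosine that was shared by all libraries, and these opposite cytosines had a mean level of 0.489 % and a highest site mean of 0.829 %. The members were thus high on their own strand, and at the 5 sites where the partner could be read it was nearly unmethylated. At the other shared CAG and CTG sites, 9119 opposite cytosines were shared, with a mean level of 0.811 %. A nearly unmethylated partner was thus not particular to the members.

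CG sites near members were more highly methylated than CG sites near the other shared non-CG sites. The 220 shared CG sites within 10 bp of a member on the same strand had a mean level of 50 % ± 3.32 (SD, n = 10 libraries), with testis lowest at 42.2 % and blood cells highest at 54.1 %. The 49104 CG sites near other shared non-CG sites were at 28.5 % ± 2.13, from 24.2 % to 32.2 %. Members were higher by 21.5 ± 1.51 points, in each of the 10 libraries, and both groups of values did not overlap. An exact permutation of the signs over the libraries gave a two-sided p of 0.00195, the lowest value possible with 10 libraries, and 0.00195 after Benjamini-Hochberg adjustment over 3 tests. The same sites were used in every library, so this p describes the spread between libraries and not between sites.

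These neighbours are given for each set of members. Near the 86 members before CCGG, 93 CG sites had a level of 28.9 % ± 1.17, with a highest library of 31.3 %, beside 28.8 % ± 2.16 for all 53007 shared CG sites, and 65 of the 93 (69.9 %) were below 20 %. Near the 125, 128 CG sites had a level of 65.8 % ± 5.13, from 53.1 % to 71.0 %, and 102 of them (79.7 %) had a site mean of 50 % or more. The libraries of the 125 and of the 86 did not overlap. The difference from CG sites near other shared non-CG sites was 37.3 points for the 125 members alone (two-sided exact permutation of signs, p = 0.00195). The split into 125 and 86 was made after the levels were seen, so this comparison was not a planned one.

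Non-CG sites near members that were not themselves constantly high or directly 5′ of a site were close to 0, at levels above those near other sites. The 422 non-CG sites within 10 bp of a member on its strand, leaving out members and sites that met the *MspI* exclusion, had a mean level of 2.63 % ± 0.265, from 2.20 % in mammary gland parenchyma to 3.02 % in ileum. The 90255 non-CG sites near other shared non-CG sites were at 0.810 % ± 0.0564. The difference of 1.82 ± 0.224 points was positive in 10 of 10 libraries (two-sided exact permutation of signs, p = 0.00195, adjusted p = 0.00195). The rule read the levels of these neighbours as well, so this test is not independent of the choice of members. Nothing is concluded from its p-value. Where abomasum was not used as a library and members were chosen anew (362 sites), the difference was 1.14 points. Near the 86 members this level was 0.905 % ± 0.149 and near the 125 it was 3.33 % ± 0.362. Of the 322 non-CG sites near the 125, 17 had a mean of 20 % or more. These levels are low in part by construction, since high neighbours were left out. With them kept, 509 non-CG sites lay within 10 bp of a member, 64 of them at 50 % or more in all 10 libraries, and the mean level was 14.2 %. Another constantly high site lay within 10 bp of 40 of the 86 members (46.5 %) and of 14 of the 125 (11.2 %).

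Coverage differed in direction between the 2 sets of members. For the 86 the mean number of reads on the log2 scale was 5.01 ± 0.57 (SD, n = 10 libraries), below the other shared non-CG sites in each of the 10 libraries, and the difference was -0.33 ± 0.19. For the 125 it was 6.0 ± 0.36, above the other sites in each of the 10 libraries, with a difference of 0.66 ± 0.21. By median reads, the 86 were below the other sites in 8 libraries and above them in 1, while the 125 were above in 10. Over all members, the mean coverage on the log2 scale was 5.59 ± 0.42 for members and 5.34 ± 0.39 for the others (SD, n = 10 libraries). The difference was 0.26 ± 0.12, or 1.20-fold, and positive in 10 of 10 libraries (two-sided exact permutation of signs, p = 0.00195, adjusted p = 0.00195). With the median number of reads in place of the mean log2, the difference was 1.80 reads (two-sided exact permutation of signs, p = 0.0977), so that it was not larger than the spread between libraries. Where testis was not used as a library the difference was 0.16 on the log2 scale, and 0.10 where abomasum was not used. Coverage is not fully apart from the rule, since at few reads a high site falls under 50 % by counting error more readily.

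Deep coverage was found at a minority of members. The median number of reads over the 10 libraries exceeded 100 at 36 of the 125 members (28.8 %), at 1 of the 86 (1.16 %) and at 10.7 % of all shared non-CG sites. The lowest coverage over the libraries was 8 or 9 reads at 49 members, and 57 members had at least 20 reads in all libraries. Of these 57, 2 were among the 86.

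**Figure D4:**
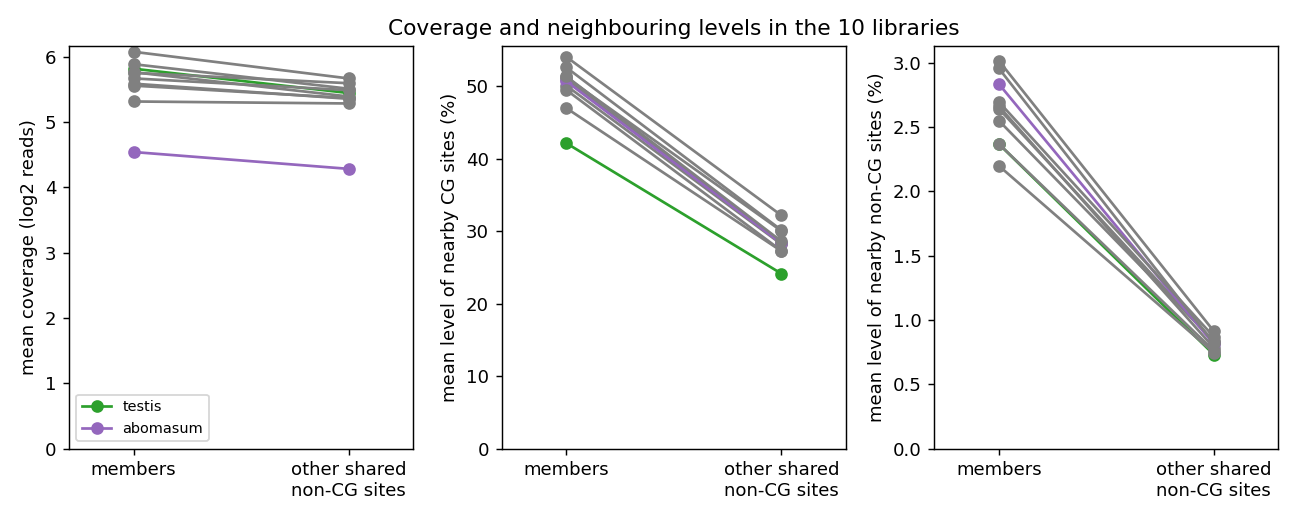
Mean coverage on the log2 scale (left), mean level of CG sites within 10 bp (middle, %) and mean level of non-CG sites within 10 bp (right, %) for members and for the other shared non-CG sites, with 1 line per library. All 10 lines fall from members to others in each panel, and testis is the lowest library for the CG sites on both sides.

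A step in coverage next to the cytosine was found at few members. For 199 members a shared cytosine lay within 10 bp on the same strand, and the reads at the member were within 1.2 times those of this neighbour at 183 (92.0 %). A ratio above 2 was found at 5 of these members (2.51 %), all among the 125, and at 0.177 % of the other shared non-CG sites. The highest ratio was 26.9.

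Most members had no other member within 50 bp. Of the runs of members on 1 strand with steps of at most 50 bp, 174 held 1 member, 17 held 2 and 1 held 3. In 10 of the 19 steps within runs the members were adjacent bases. On a wider scale, 38 of the 125 members had another member between 50 bp and 100 kb away, whichever strand it was on, while this was so for 2 of the 86. Among groups of at least 3 members with steps of at most 100 kb, 5 members lay within 9.90 kb on chromosome 8 (11950216 to 11960115), 5 within 29.1 kb on chromosome 20 and 4 within 27.7 kb on chromosome 13 (48992581 to 49020235). Another 4 lay within 46.7 kb on chromosome 29 (19401696 to 19448356). The 7 groups of this kind held none of the 86. Genes at these places were not analysed here, since no annotation of UMD3.1 was used.

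The run of 3 members lay on the forward strand of chromosome 20. At 14787311 (TGCAA) the level was 93.4 % in abomasum at the lowest, 96.4 % at the median and 99.0 % in testis at the highest, on 242 to 2390 reads. At 14787316 (GGCAC) it was 92.4 %, 95.9 % and 99.2 %, in the same order of libraries. At 14787318 (CACCC) it was 65.8 % in mammary gland parenchyma, 71.9 % at the median and 76.3 % in testis. The third site was lower than the other 2 in every library, since its highest value was below their lowest.

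The next 2 cytosines, 14787319 and 14787320, had medians of 32.4 % and 49.1 % and were no members, and the CG site at 14787321 had a median of 3.31 %. All of these were read about as often as the members, with medians of 545.5 to 547 reads. The CG site at 14787306, 5 bp before the first member, had a median of 22.5 reads and 63.0 %, and the 3 non-CG sites before it had medians of 0 % at 22 to 22.5 reads. Both the number of reads and the level therefore changed between 14787306 and 14787311. The site directly 5′ of the CCGG that follows, at 14787327, had a median of 96.4 % and was left out by the rule.

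**Figure D5:**
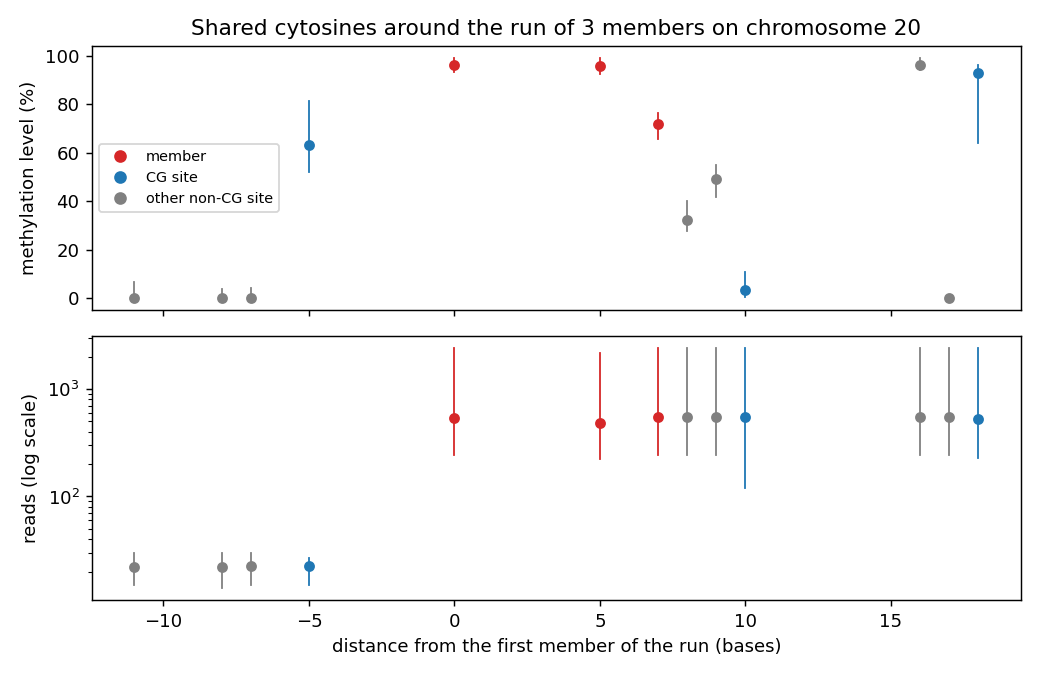
Methylation level (upper panel, %) and reads on a log scale (lower panel) of the shared forward-strand cytosines around the run, against the distance from its first member (x axis, bases), with the median over the 10 libraries as a point and the lowest to the highest library as a line. Reads rise from 22.5 to 542.5 at the median between the last CG site before the run and its first member.

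The deepest member was chr29:19430992 (CCCTT, forward), 46 bases before CCGG. It had 7408 reads in abomasum at the lowest, 35569.5 at the median and 65067 in testis at the highest. Its level was 99.5 % in abomasum and 100 % to 3 digits in the other 9 libraries, so that hardly an unmethylated read was found at this depth. The deepest member before adenine, chr22:53684799 (TCCAG, reverse), had 699 to 4596 reads. Its level was 63.6 % in testis, 81.7 % in frontal cortex, 93.5 % at the median and 95.6 % in the lactating mammary gland at the highest. At chr10:59478563 (TCCTG, reverse) the level was 64.3 % in testis, 88.0 % at the median and 94.1 % in nucleated blood cells, on 307 to 2638 reads. Testis was the lowest library at both of the last-named members.

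The widest ranges of level among members with at least 20 reads in every library were at 5 sites, and testis was the lowest library at each. The level at chr21:70103021 (GCCAT, reverse) was 56.7 % in testis, 89.5 % at the median and 100 % in ileum. At chr8:11950216 (CTCCT, forward) it was 58.4 % in testis, 70.5 % at the median and 100 % in abomasum, where the next library reached 77.4 %. At chr4:61197511 (GGCAG, reverse) it was 55.0 % in testis, 82.3 % at the median and 94.0 % in uterus.

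Testis was also the lowest at the remaining 2 sites. At chr11:107305187 (GACTG, reverse) the level was 60 % in testis, 83.3 % at the median and 97.4 % in nucleated blood cells. The site chr8:110684885 (GACCG, reverse) is itself the first C of a CCGG, and its level was 53.1 % in testis, 81.3 % at the median and 91.0 % in mammary gland parenchyma. In all, 8 members were the first C of a CCGG, out of 7052 shared non-CG sites at this position (0.113 %), with site means from 69.9 % to 100 %. Among them, chr11:7324658, chr16:52431090 and chr9:15453469 also lay 6 bases before another CCGG on the forward strand and so belong to the 86. *MspI* is known to be blocked by methylation of this outer cytosine.

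Differences between pairs of libraries were called at 45 of the 211 members (21.3 %), with Fisher's exact test in each of the 45 pairs, Benjamini-Hochberg adjustment over all shared cytosines of a pair, a q under 0.01 and 25 points or more between the levels. By the same calls, 0.551 % of the shared non-CG sites and 7.24 % of all shared cytosines passed in at least 1 pair. The rule used these levels and holds the difference at a member to 50 points, and most other non-CG sites are near 0, so nothing is read from the gap to these shares. Among the 467 shared non-CG sites with a mean of 20 % or more that were not constantly high, 66.4 % passed. The rule does not hold these sites to a difference of 50 points, so nothing is read from this share either. With 1 library per tissue the test compares libraries and not tissues.

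Of the 45 members, 41 were among the 125 (32.8 %) and 4 among the 86 (4.65 %). A call is harder to reach at few reads, and the 2 sets differed in depth. At least 20 reads in all libraries were found at 55 of the 125 and at 2 of the 86. The part of depth in this contrast was not tested. Testis was in a called pair at 39 of them and had the lower level at 34 and the higher at 5. Without testis, 22 members passed in at least 1 pair. The pair of testis and nucleated blood cells had the most, with 20 members, and the member on chromosome 22 passed in 8 pairs. Among all shared non-CG sites the pair of testis and nucleated blood cells also had the most calls, with 183. The other pairs with testis had 95 to 156 such calls, and the pairs without testis had 16 to 120. A high number of calls with testis was thus not particular to the members. Of the 37 members with a median above 100 reads, 10 passed.

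The edge of the rule ran through a continuous range of levels. The lowest level was exactly 50 % at 9 members, 3 of them among the 86. The first 3 of these, with chromosome names sorted as text, were chr14:85320 (CTCAG, forward), chr19:64316 (GCCCC, forward) and chr24:43515443 (CGCCG, forward), each at 50 % in 1 library. At the last of these the low value was 50 % in abomasum on 10 reads (interval 23.7 to 76.3 %), while the other 9 libraries were at 96.2 % or more. Just outside were chr4:95952745 (ACCTG, forward) with 49.4 % in mammary gland parenchyma, chr5:54082971 (TCCAA, reverse) with 48.8 % in testis and chr2:135635054 (TGCAA, forward) with 48.4 % in nucleated blood cells. The medians of these 3 sites were 68.9 %, 69.4 % and 94.6 %.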

How the data were processed

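RRBS was done by the authors on 1 library per tissue. The authors removed adapters and low-quality bases, aligned the reads to UMD3.1 with a pipeline based on SOAPaligner, and kept unique alignments and cytosines with at least 8 reads. The deposited number of reads per cytosine is a count without normalization, and the deposited methylation level is a fraction, methylated over all reads. Another 3 deposited columns, with the number, p-value and FDR of the authors' own methylation call, were not used.

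Levels multiplied by reads gave whole methylated reads at each cytosine. Reads summed over cytosines ranged from 16125651 to 40089443. The base sequence around members was joined from the 5 deposited bases per cytosine, with 0 conflicts. Levels were averaged over sites without weighting. Tests over libraries were exact sign-flip permutation tests, and p-values measure the spread between libraries only. Fisher calling was tested on simulated data. PCR copies were not told apart. Alternatives were other minimums of reads and level, other forms of the *MspI* exclusion, other windows, and leaving out libraries, members or sequence.

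The members and lists were chosen with earlier results of these data known. Sites named by rule are the member with the highest lowest coverage for each next base and the 5 over all. Also named by rule are the run with the most members and the 5 widest ranges at 20 or more reads. Another 3 sites on either side of the 50 % threshold complete these lists. Other sites in the text, such as those described among the members before CCGG, were picked after the values were seen. Some of these tied in lowest coverage with members not described. The work was done in Python 3.11.15 (SciPy 1.17.1 for statistics, Numba 0.67.0 for Fisher's test, pandas 2.3.3 and NumPy 2.4.6 for tables, matplotlib 3.10.9 for plots).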

Additional observations from a re-analysis of the deposited data

Results flagged for a closer look

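Among 21 sets of 10 library values that were examined, 7 held a library that stood apart from the others by Dixon's criterion. Chance alone gives about 1 in 20 sets, but several sites were picked for a wide range or a low library, so the count cannot be set against that rate. In abomasum, the mean level over the 86 members 5 or 6 bases before CCGG was 80.9 %, with the next library at 94.3 %. The mean coverage of the 211 members on the log2 scale was 4.54 in abomasum, with the next library at 5.31. The other shared non-CG sites were at 4.28 in abomasum, with the next library at 5.28, so this low coverage was not particular to the members. The level at chr24:43515443, a member 5 bases before CCGG, was 50 % in abomasum on 10 reads and 96.2 % in the next library. At chr29:19430992 the abomasum library, at 99.5 %, differed by less than 1 point from the others. At chr8:11950216 abomasum was the highest at 100 %, with the next library at 77.4 %. Testis was the lowest at chr22:53684799, with 63.6 % against 81.7 % in the next library, and at chr21:70103021, with 56.7 % against 77.4 %. With 1 library per tissue, none of these values has a replicate.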

How the results depend on the processing

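The number of members was 211 at 8 reads and 50 %. It was 57 with a minimum of 20 reads, 92 with a minimum level of 80 %, and 553 with no exclusion at *MspI* sites, while the other planned settings gave 162 to 253. Chosen after seeing the data, leaving out abomasum gave 362 members, leaving out testis 261, and leaving out the members before CCGG 125. Of the members 5 or 6 bases before CCGG on the forward strand, 2 remained with a minimum of 20 reads, 46 with a minimum level of 80 % and 181 sites without abomasum. The forward share of members fell to 54.4 % at 20 reads and to 51.2 % without the members before CCGG. The shares by next base stayed within the interval of the value reported under each setting tried. The 3 tests over libraries kept direction and significance, except for the coverage of members, where the median reads gave a difference of 1.80 (two-sided exact permutation of signs, p = 0.0977). The size of the differences moved more, for CG neighbours to 13.2 points at 20 reads and 35.2 within 5 bp, for non-CG neighbours to 4.79 points at a level of 80 % and 0.869 within 20 bp, and for coverage to 0.66 on the log2 scale without the members before CCGG. The number of members called between libraries was 14 at a difference of 40 points, 21 at 20 reads and 22 without testis, while leaving out abomasum gave 37 and adjustment over the non-CG sites alone 34. Weighting by coverage moved no named member's mean by its SD over the libraries or more. The causes of these shifts were not tested. At 8 reads the level has few possible values, which limits single values in abomasum most. The 3 tests over libraries used the difference within each library, while no pairing of tissue replicates was possible because each tissue has 1 library.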
